A study of Mus musculus with 18 samples.

Results

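The genes described here encode the laminin chains and the integrin subunits, 36 genes in all among the 36528 that the deposited tables list. The set was chosen with earlier results of these data known, and its rule is by name: every row whose current mouse symbol was in a fixed set of 10 laminin chains and 26 integrin subunits (18 α and 8 β) was taken. All 36 were found, and 26 of them (9 laminin chains, 10 α and 7 β subunits) had more than 10 reads in at least 4 of the 18 samples and entered the tests, among 15521 genes tested. One of the 26, Itga8, passed this filter only through TWEAK samples, so counts of members here are over the other 25 and Itga8 is described without a test. The samples were primary renal tubulo-interstitial epithelial cells (RPTEC) of C57BL/6 mice, bought from a supplier and grown in culture, and their RNA was measured by RNASeq. The vehicle groups received DMSO, the TWEAK groups received recombinant mouse TWEAK at 100 ng/mL, and the TWEAK+NIK SMI1 groups received the same TWEAK with NIK SMI1 at 3 μM. Each treatment was given for 6 h or for 24 h, with 3 samples in each of the 6 groups. No group received NIK SMI1 without TWEAK. The labels do not say that the samples of a group came from separate animals or from separate cultures. The p-values here therefore measure the spread between samples, whatever sets them apart. TWEAK is a cytokine of the TNF superfamily that signals through the receptor Fn14, and NIK is the kinase that starts the non-canonical branch of NF-κB signaling. NIK SMI1 is a small molecule inhibitor of NIK.

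Laminins are the main glycoproteins of the basement membrane that epithelial cells sit on, and each is a trimer of an α, a β and a γ chain. Integrins are the receptors that hold the cell to this matrix, and each is a dimer of an α and a β subunit, with the α subunit largely setting the ligand. In epithelia, the α3β1 and α6 integrins bind laminin, the α1β1 and α2β1 integrins bind collagen, and the α5β1 integrin and the αv family bind the RGD sequence of fibronectin, vitronectin and the latent form of TGF-β. The αvβ6 dimer is found mainly on epithelial cells and is known for activating latent TGF-β. The α6β4 dimer anchors epithelial cells to laminin-332 in hemidesmosomes, where it is linked to keratin filaments.

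Between 18040966 and 51956444 reads were counted per sample, so that 3 reads correspond to 0.0577 to 0.166 CPM, that is, reads per 1e6 counted reads. The 9 epithelial markers summed to 10730 to 15180 CPM. The sum moved with treatment, from 14520 to 15180 CPM in vehicle to 12760 to 13180 CPM with TWEAK and 14000 to 14990 CPM with TWEAK+NIK SMI1 at 6 h. At 24 h it was 13560 to 13830 CPM in vehicle, 10730 to 10940 CPM with TWEAK and 12340 to 12450 CPM with TWEAK+NIK SMI1. The 10 proximal tubule markers summed to 30.8 to 43.4 CPM and 6 of them were tested. Cdh16 (18.7 to 31.2 CPM), Slc5a2 (5.83 to 8.52 CPM) and Cubn (1.93 to 4.64 CPM) carried most of this sum, whereas Slc34a1, Slc22a6 and Hnf4a reached at most 0.0441, 0.0226 and 0.0575 CPM. The other markers Lrp2, Aqp1, Anpep and Ggt1 reached at most 0.586, 0.455, 0.3585 and 2.11 CPM. Of 6 endothelial markers Emcn had no read and the sum stayed between 0.195 and 0.813 CPM. The 8 leukocyte markers summed to 18.4 to 26.0 CPM, nearly all of it from Cd68 (11.2 to 14.2 CPM) and Csf1r (5.15 to 12.5 CPM), while Cd3e had no read and Ptprc stayed at or below 0.304 CPM. The 4 platelet markers summed to 29.9 to 219 CPM, nearly all of it from Ppbp, with Gp9 and Pf4 at or below 0.0881 and 0.176 CPM. Reads of 6 pancreatic islet genes differed between the treatments at 24 h. They summed to 11.6 to 23.9 CPM in all 6 h samples and in vehicle at 24 h. In TWEAK at 24 h they summed to 11.2, 0.214 and 3.47 CPM, and in TWEAK+NIK SMI1 at 24 h to at most 0.065 CPM. Because these reads move with the treatment at 24 h, each 24 h result that changed its call without the TWEAK samples that hold them (replicates 1 and 3) is given both ways below. That fit was chosen after the data were seen, and it leaves 1 TWEAK sample at 24 h, which is assumed to vary like the samples of the other groups. The sample left, at 0.214 CPM, is near the TWEAK+NIK SMI1 samples in these reads but far from vehicle at 24 h (11.6 to 15.7 CPM). In any comparison that includes vehicle at 24 h, the fit therefore cannot separate TWEAK from these reads. In bulk samples, fewer cells that express a gene and less RNA per cell cannot be told apart.

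Per length of transcript, the most abundant members were integrin subunits that bind laminin and a chain of laminin-332. The highest RPKM, the authors' length-scaled level, was that of Itgb1, the β subunit shared by most matrix-binding integrins, with a mean of 694 over the 18 samples. Itga3, the α subunit of the laminin receptor α3β1, followed at 486 RPKM. Lamb3, the β chain of laminin-332, had 240.0 RPKM, Itgb4 172 RPKM and Lamb1 135 RPKM. Itgav, Lama3, Itga2, Lama5 and Itga6 lay between 55.7 and 81.3 RPKM, and Itga5, Lamb2, Itgb5, Lamc1 and Itgb6 between 10.2 and 14.6 RPKM. Itgb2, the β subunit of leukocyte integrins, had 2.71 RPKM, while its α partners Itgal, Itgam, Itgax and Itgad reached at most 2, 6, 3 and 1 reads in any sample. The other 10 tested members, Itga2b, Itga1, Itga10, Itga7, Itgb8, Itgb3, Lamc3, Lama4, Lama2 and Itga8, were below 1 RPKM. The tables name genes by Entrez identifier, for example 16774 for Lama3, 16780 for Lamb3, 16420 for Itgb6, 16410 for Itgav, 16398 for Itga2, 16402 for Itga5, 16403 for Itga6 and 192897 for Itgb4. Near the filter, Itga8 passed with 4 samples over 10 reads, Lama2 with 5 and Lama4 with 7, while Itga11 with 3, Itgae with 2 and Itgb7 with 1 failed it. The 4 samples that let Itga8 pass were all TWEAK samples, so its presence among the tested genes depends on the group where it was high. The 10 members that were not tested were Lama1, Itga4, Itga9, Itga11, Itgad, Itgae, Itgal, Itgam, Itgax and Itgb7, none with more than 16 reads in a sample.

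**Figure D1:**
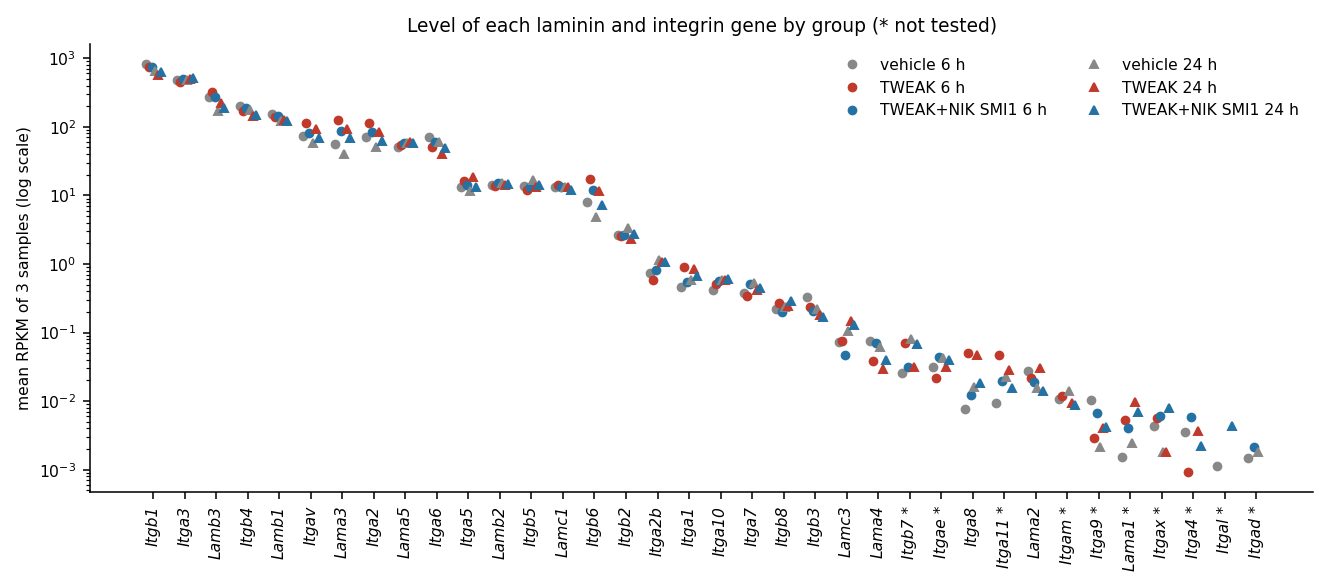
Mean RPKM of 3 samples per group on a log axis for the 36 laminin and integrin genes, ordered by their mean over all samples; circles are 6 h and triangles 24 h, grey is vehicle, red TWEAK and blue TWEAK+NIK SMI1, and group means of 0 are not drawn. Itgb1 at 694 and Itga3 at 486 RPKM lead, and the groups separate visibly for Lama3, Itgav, Itga2 and Itgb6.

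TWEAK changed 13 of the 25 counted members at each time. At 6 h 8 members rose and 5 fell, and at 24 h 7 rose and 6 fell (edgeR quasi-likelihood test, adjusted p below 0.05). Of all tested genes, 11.7% rose and 12.0% fell at 6 h, and 18.3% rose and 20.7% fell at 24 h, beside which 32% of the members rose at 6 h and 28% at 24 h, and 20% and 24% fell. The median log2 fold change of the members was 0.01 at 6 h and 0.03 at 24 h, beside -0.003 and -0.006 over all tested genes. The genes that rose at both times were Lama3, Itgb6, Itga2, Itgav, Itga1, Itga5 and Lamb3, and those that fell at both times were Itga6, Itgb4 and Itgb1. The vehicle samples of a time serve both this comparison and that of TWEAK+NIK SMI1 with vehicle, and the TWEAK samples serve both this comparison and that with the inhibitor.

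Among the laminin chains, the 2 chains of laminin-332 that are members rose. Lama3, its α chain, was at 738, 681 and 710 CPM in vehicle at 6 h and at 1545, 1527 and 1583 CPM with TWEAK. At 24 h it was at 517, 517 and 490 CPM in vehicle and at 1146, 1142 and 1211 CPM with TWEAK. All TWEAK samples lay above all vehicle samples of their time, and the change was 2.21-fold at 6 h (log2 fold change 1.14, SE 0.04, adjusted p = 2.37e-18) and 2.30-fold at 24 h (1.2, SE 0.04, adjusted p = 4.92e-19). Lamb3 had 1219 ± 27.4 CPM in vehicle and 1426 ± 55.0 CPM with TWEAK at 6 h (mean ± SD of 3 samples), a log2 fold change of 0.24 (SE 0.04), and rose at 24 h from 771 ± 25.7 to 993 ± 13.2 CPM (0.36, SE 0.04), again without overlap of the samples. Lama5, an α chain of many mature epithelial basement membranes, was called higher at 6 h (610.2 ± 48.7 against 669 ± 46.0 CPM, log2 fold change 0.14, edgeR adjusted p = 0.045), with overlapping samples, and was at 0.08 and not called at 24 h. The 6 h call was lost with library totals alone (edgeR adjusted p = 0.0745), in the fit of these groups alone (0.0764), and without replicate 1 or 2 of vehicle or replicate 2 or 3 of TWEAK (adjusted p from 0.102 to 0.272). Lamb1, a β chain of laminins with α5, fell slightly at 6 h (977 ± 37.8 against 882 ± 15.2 CPM, log2 fold change -0.14, SE 0.03) and was not called at 24 h (0.05). Lama4, a chain typical of endothelial and mesenchymal laminins, had 16, 7 and 9 reads in vehicle and 6, 8 and 5 reads with TWEAK at 24 h and was called lower (log2 fold change -1.15, SE 0.45, edgeR adjusted p = 0.044). With so few reads the Lama4 call was lost in DESeq2 (adjusted p = 0.0809), in the fit without the filter, in the fit of these groups alone, without the samples with islet reads (-1.17, adjusted p = 0.163), and without any vehicle sample or without replicate 2 or 3 of TWEAK (adjusted p from 0.0621 to 0.167). The chains Lamb2, Lamc1, Lamc3 and Lama2 were not called with TWEAK at either time.

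**Figure D2:**
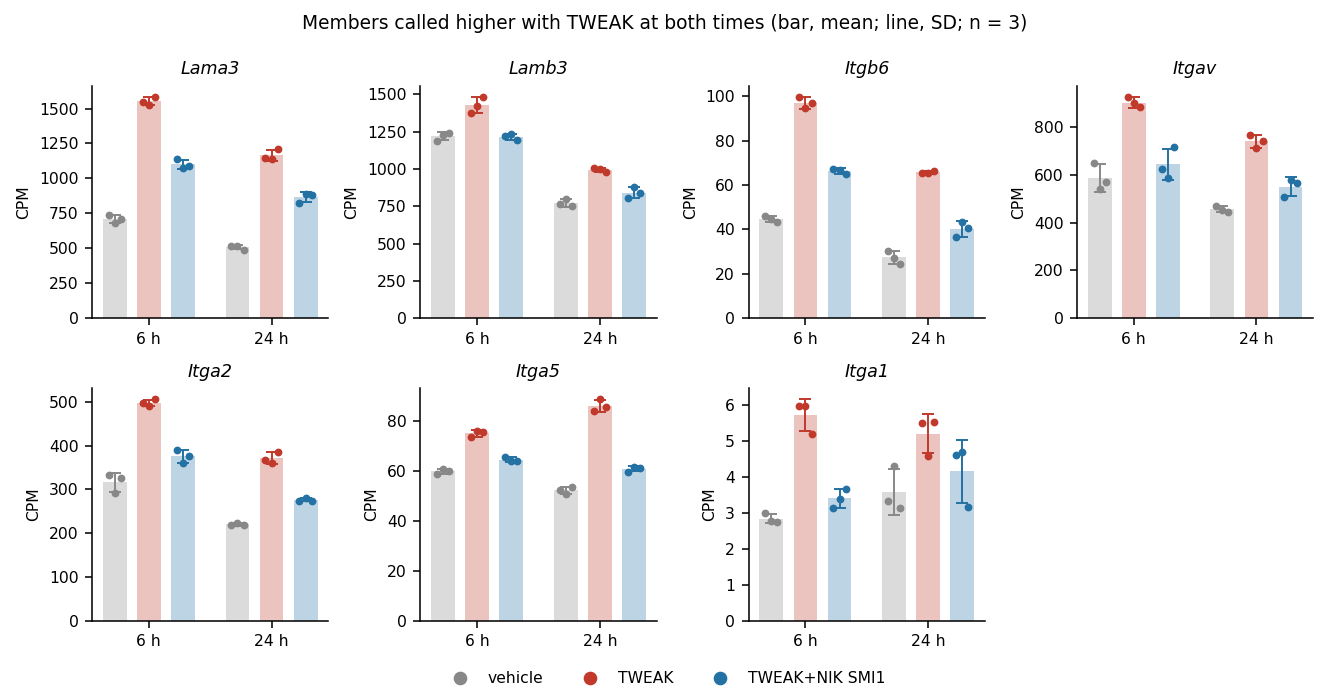
CPM of the 7 members called higher with TWEAK at both times, in the 3 samples (points) of each group, with the mean as a bar from 0 and the SD as a line. For Lama3, Lamb3, Itgb6, Itgav, Itga2 and Itga5 the red TWEAK points lie above the grey vehicle points of the same time, and the blue points with NIK SMI1 lie below the red ones.

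The makeup of the laminin transcripts also differed between groups. Lama3 made up 54.7, 53.3 and 50.7% of the summed RPKM of the 5 laminin α chains in vehicle at 6 h and 70.5, 67.3 and 69.6% with TWEAK. At 24 h its share was 42.8, 39.7 and 41.5% in vehicle and 59.9, 59.6 and 61.9% with TWEAK. Nearly all of the rest was Lama5, at 47.0 and 30.8% (means, 6 h) and at 58.6 and 39.5% (24 h). With NIK SMI1 the mean share of Lama3 was 60.0 ± 1.8% at 6 h and 54.6 ± 2.0% at 24 h (SD, n = 3), between vehicle and TWEAK. Lamb3 in turn made up 61.6 ± 1.2% of the β chain RPKM in vehicle and 67.4 ± 0.66% with TWEAK at 6 h, and 55.5 ± 0.23 and 61.0 ± 0.44% at 24 h. These shares were not tested.

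Both subunits of αvβ6 rose. Itgb6, which pairs only with αv, was at 46.0, 44.8 and 43.5 CPM in vehicle and at 99.7, 94.6 and 96.9 CPM with TWEAK at 6 h. At 24 h Itgb6 was at 30.3, 27.3 and 24.6 CPM in vehicle and at 65.3, 65.6 and 66.5 CPM with TWEAK. This amounts to a 2.19-fold rise at 6 h (log2 fold change 1.13, SE 0.06, adjusted p = 5.3e-15) and a 2.37-fold rise at 24 h (1.25, SE 0.06, adjusted p = 2.93e-15), with no overlap of samples. Itgav rose 1.55-fold at 6 h, from 587 ± 57.0 to 903 ± 21.6 CPM (log2 fold change 0.63, SE 0.06), and 1.62-fold at 24 h, from 456 ± 13.5 to 741 ± 27.3 CPM (0.70, SE 0.06). None of the other β partners of αv was called higher. Itgb5 was not called at 6 h (46.2 ± 1.6 against 41.6 ± 0.58 CPM, log2 fold change -0.14, edgeR adjusted p = 0.0511). It was called lower there with DESeq2 size factors (edgeR adjusted p = 0.0472), with library totals alone (0.0362), in the fit of these groups alone (0.0437) and without replicate 3 of vehicle (0.0486). It fell at 24 h (56.8 ± 2.9 against 45.8 ± 2.4 CPM, log2 fold change -0.31, SE 0.05). Itgb3 was not called (log2 fold change -0.48 at 6 h and -0.33 at 24 h), nor was Itgb8 (0.31 and 0.04). Of the summed RPKM of Itgb3, Itgb5, Itgb6 and Itgb8, Itgb6 held 37.4, 35.6 and 36.1% in vehicle and 58.3, 57.6 and 57.7% with TWEAK at 6 h. At 24 h the Itgb6 share was 24.8, 22.6 and 19.6% in vehicle and 45.6, 44.9 and 47.7% with TWEAK, and with NIK SMI1 it was 46.3 ± 0.43% at 6 h and 33.0 ± 3.3% at 24 h.

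**Figure D3:**
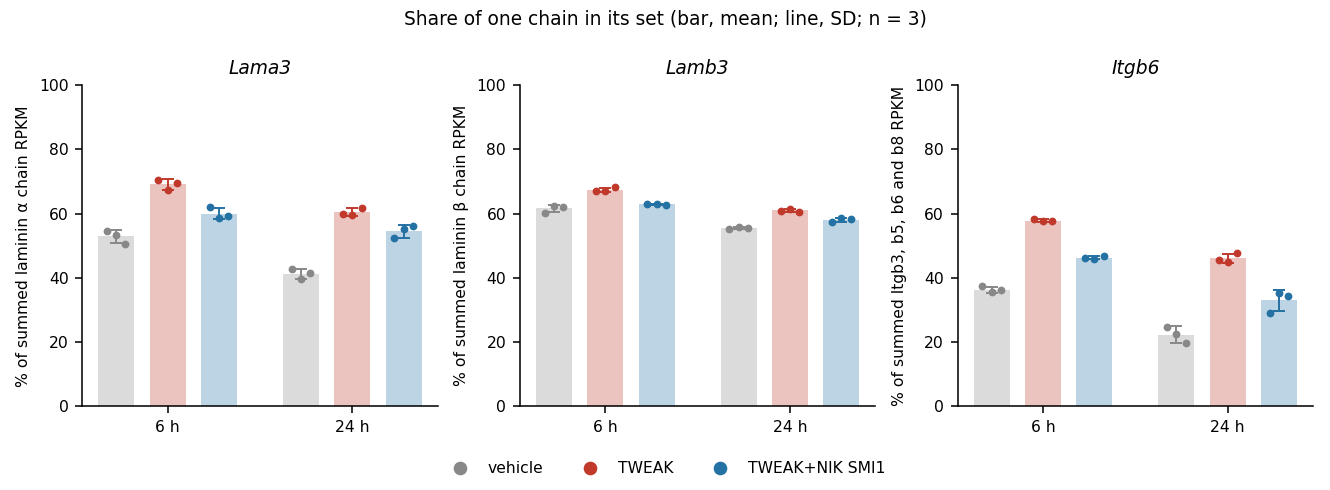
Share of a chain in the summed RPKM of its set, in percent from 0 to 100, in the 3 samples (points) of each group with mean (bar) and SD (line): Lama3 among 5 laminin α chains, Lamb3 among 3 laminin β chains and Itgb6 among Itgb3, Itgb5, Itgb6 and Itgb8. The TWEAK samples hold the highest shares at each time, for example 69.1% for Lama3 at 6 h, and the samples with NIK SMI1 lie between TWEAK and vehicle.

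Among the collagen receptors, Itga2, the α subunit of α2β1, rose from 332, 291 and 326 to 498, 492 and 506 CPM at 6 h and from 218, 224 and 220 to 367, 360.0 and 387 CPM at 24 h. All TWEAK samples lay above all vehicle samples, a 1.59-fold and a 1.68-fold change (log2 fold changes 0.67 and 0.75, SE 0.04 each). Itga1, the α subunit of α1β1, was far lower in level and rose 2.04-fold at 6 h (2.84 ± 0.12 against 5.71 ± 0.44 CPM, log2 fold change 1.03, SE 0.14, adjusted p = 1.19e-06). At 24 h Itga1 was at 3.59 ± 0.64 CPM in vehicle and 5.20 ± 0.54 CPM with TWEAK (log2 fold change 0.54, SE 0.15, edgeR adjusted p = 0.00379), and without the TWEAK samples with islet reads the value was 0.36 and the call was lost (adjusted p = 0.179). Itga10, another collagen receptor subunit, was not called at either time (0.26 and -0.006).

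Among the fibronectin receptors, Itga5, the α subunit of α5β1, rose from 58.7, 60.8 and 59.7 to 73.3, 75.9 and 75.5 CPM at 6 h. At 24 h Itga5 rose from 52.2, 50.6 and 53.4 to 83.9, 88.5 and 85.3 CPM. The change was 1.27-fold at 6 h (log2 fold change 0.34, SE 0.04) and 1.65-fold at 24 h (0.72, SE 0.04, adjusted p = 7.89e-15). Itga8, which pairs with β1 and binds nephronectin during kidney development, was barely counted, with 0, 3 and 4 reads in vehicle and 10, 17 and 15 reads with TWEAK at 6 h, and 3, 5 and 0 against 10, 11 and 11 reads at 24 h. The samples did not overlap at 6 h and overlapped at 24 h on the CPM scale. Because only TWEAK samples carried Itga8 past the filter, a test of TWEAK on it favours a rise, and no test is given.

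The subunits that fell included both partners of the hemidesmosome receptor α6β4. Itga6 was at 472, 439 and 452 CPM in vehicle and at 329, 338 and 322 CPM with TWEAK at 6 h. At 24 h Itga6 was at 400.4, 387 and 384 CPM in vehicle and at 263, 255 and 263 CPM with TWEAK. No TWEAK sample reached a vehicle sample, and the decrease was 1.37-fold at 6 h (log2 fold change -0.45, SE 0.04, adjusted p = 1.28e-10) and 1.5-fold at 24 h (-0.59, SE 0.04, adjusted p = 4.25e-13). Itgb4 fell by less, from 1322 ± 46.5 to 1122 ± 48.2 CPM at 6 h (log2 fold change -0.23, SE 0.04) and from 1161 ± 66.8 to 961 ± 11.7 CPM at 24 h (-0.27, SE 0.04). Itgb1, the most abundant member, fell from 3567 ± 112 to 3234 ± 50.3 CPM at 6 h (log2 fold change -0.13, SE 0.03) and from 2840 ± 46.4 to 2506 ± 63.4 CPM at 24 h (-0.18, SE 0.03). Over the same samples the sum of the 9 epithelial markers fell too, to 12760 to 13180 CPM at 6 h and 10730 to 10940 CPM at 24 h, below all vehicle samples of each time. Its part in these decreases was not tested. Among the α partners of β1, Itga1, Itga2 and Itga5 rose while Itga6 fell. Itga3 fell at 6 h (2481 ± 18.2 against 2291 ± 51.5 CPM, log2 fold change -0.10, edgeR adjusted p = 0.00905), a call that was lost without replicate 1 of vehicle or replicate 1 of TWEAK (adjusted p = 0.0521 and 0.0839), and was at 0.03 at 24 h. Itgb2 was not called at 6 h (0.01) and fell at 24 h (10.3 ± 0.60 against 7.15 ± 1.0 CPM, log2 fold change -0.51, SE 0.11), with a value of -0.33 and no call without the samples with islet reads (edgeR adjusted p = 0.0707). The 8 leukocyte markers summed to 21.4 to 22.3 CPM in these vehicle samples and to 24.6 to 26.0 CPM in the TWEAK samples, mostly from Cd68 and Csf1r, with Ptprc at or below 0.304 CPM and Cd3e at 0, and their part in the Itgb2 result was not tested. Without the TWEAK samples with islet reads, the 24 h values were 1.16 for Lama3, 1.23 for Itgb6, 0.76 for Itga5, 0.70 for Itga2, 0.64 for Itgav, 0.36 for Lamb3, -0.27 for Itgb4, -0.25 for Itgb5, -0.62 for Itga6 and -0.21 for Itgb1. These 10 values had the same direction as with all samples. Against vehicle, this fit cannot separate TWEAK from the islet reads. Itga2b, the platelet α subunit, and Itga7, a laminin-binding subunit known from muscle, were not called with TWEAK.

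**Figure D4:**
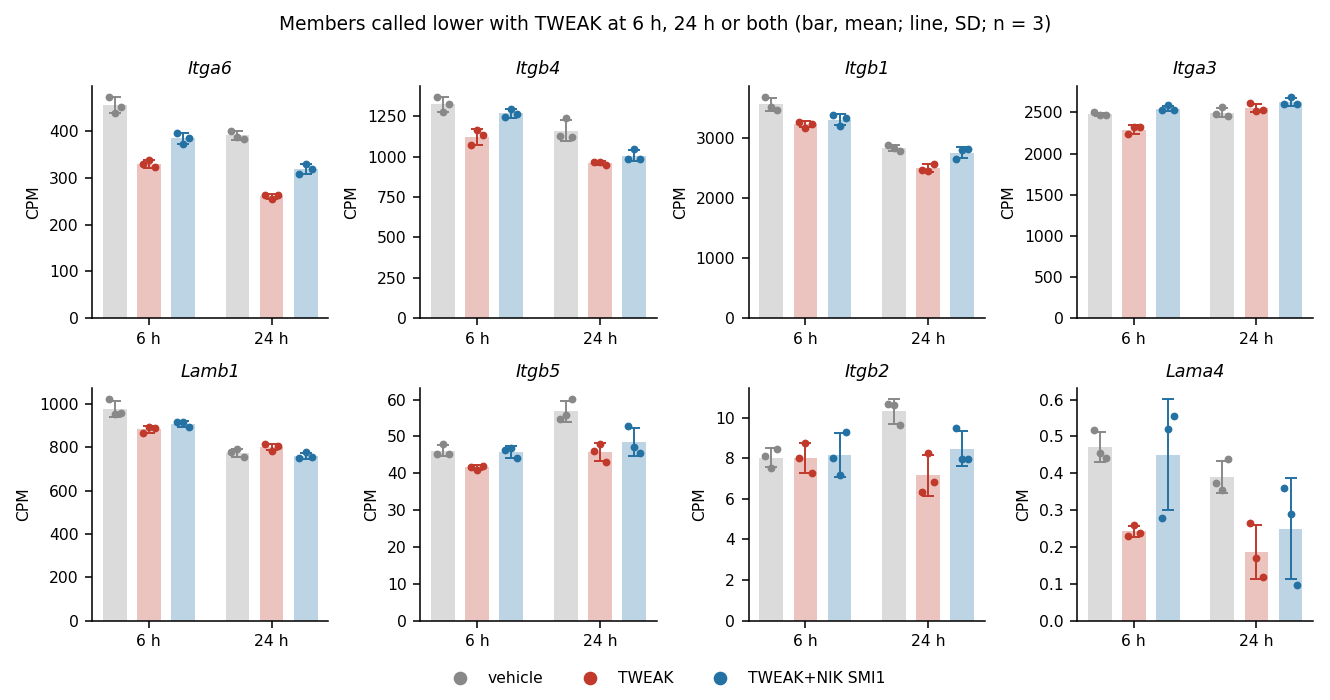
CPM of the 8 members called lower with TWEAK at 6 h, at 24 h or at both, in the 3 samples (points) of each group, with the mean as a bar from 0 and the SD as a line. Itga6, Itgb4 and Itgb1 are lower in red than in grey at both times, Itga3 and Lamb1 at 6 h, and Itgb5, Itgb2 and Lama4 were called at 24 h.

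Because several members rose together, their promoter windows (250 bases before to 50 after the start, RefSeq, GRCm38.p6) were searched on both strands for the NF-κB consensus and for the AP-1 sequence TGANTCA, 2 motifs that did not overlap in these windows. Windows were at hand for 23 of the 36 members, 17 of them tested. The NF-κB consensus was found in windows of Lamb3 and Itga3, and the AP-1 sequence in those of Itga3, Itga9 and Itgax. This is 3 of the members' 26 windows for each sequence, the pair of overlapping Lamb3 windows holding one and the same site, while 8.46% and 7.81% of all 32851 windows held them. The Lamb3 site begins 226 bases before 1 start and, counted from the other start, at base 24 after it. In Itga3 the NF-κB consensus begins 8 bases before a start. No window was at hand for Lama3. None of the windows of Itgav, Itgb6, Itga2, Itga5, Itga1 and Itga8 held either sequence, which says only that these letters are not in these windows. The window of Lamb3 is shown because it holds the NF-κB consensus (in capitals, first base 226 bases before the start), and those of Itgav and of the upstream start of Itgb6 because both subunits of αvβ6 rose. They lie at chr1:193301993-193302292 (plus strand), chr2:83724147-83724446 (plus strand) and chr2:60722554-60722853 (minus strand), and are written 5′ to 3′ on the strand of the gene.
Lamb3: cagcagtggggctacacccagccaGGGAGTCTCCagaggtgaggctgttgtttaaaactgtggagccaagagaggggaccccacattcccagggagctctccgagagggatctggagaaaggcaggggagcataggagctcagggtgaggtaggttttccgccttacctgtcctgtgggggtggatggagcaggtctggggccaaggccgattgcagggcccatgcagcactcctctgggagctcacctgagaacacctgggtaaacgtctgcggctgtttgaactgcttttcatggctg
Itgav: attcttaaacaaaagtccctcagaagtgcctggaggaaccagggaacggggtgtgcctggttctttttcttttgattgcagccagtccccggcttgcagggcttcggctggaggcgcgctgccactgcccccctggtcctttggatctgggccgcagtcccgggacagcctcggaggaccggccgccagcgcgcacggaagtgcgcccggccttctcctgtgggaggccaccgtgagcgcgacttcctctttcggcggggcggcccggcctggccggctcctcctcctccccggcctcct
Itgb6: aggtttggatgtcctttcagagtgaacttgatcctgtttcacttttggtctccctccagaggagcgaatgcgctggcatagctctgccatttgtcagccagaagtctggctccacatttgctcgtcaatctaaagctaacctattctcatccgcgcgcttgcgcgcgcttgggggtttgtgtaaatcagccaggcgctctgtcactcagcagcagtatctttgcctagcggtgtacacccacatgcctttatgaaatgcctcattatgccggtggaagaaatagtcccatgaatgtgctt

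When NIK SMI1 was added to TWEAK, Lama3, Lamb3, Itgb6, Itgav, Itga2 and Itga5 were lower than with TWEAK alone at both times, and Itga6 was higher at both times. At 6 h 7 of the 25 counted members fell (28%, against 5.70% of all tested genes) and 5 rose (20%, against 5.34%). At 24 h 7 fell (28%, against 8.29%) and 2 rose (8%, against 10.2%). The members' median log2 fold change was 0.003 at 6 h and -0.05 at 24 h, beside 0.003 and 0.008 over all genes. This comparison uses the same TWEAK samples as that of TWEAK with vehicle, so the values are given side by side and not correlated.

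Lama3 had 1139, 1074 and 1092 CPM with NIK SMI1 at 6 h and 823, 889 and 881 CPM at 24 h, in each case below all TWEAK samples and above all vehicle samples. The decrease from TWEAK was 1.41-fold at 6 h (log2 fold change -0.50, SE 0.04) and 1.35-fold at 24 h (-0.44, SE 0.04). Itgb6 had 67.4, 66.8 and 65.0 CPM at 6 h and 36.5, 43.4 and 40.8 CPM at 24 h, also between the samples of TWEAK and vehicle. It fell 1.46-fold at 6 h (log2 fold change -0.55, SE 0.06) and 1.65-fold at 24 h (-0.72, SE 0.06), the latter being the largest called decrease of a member at 24 h. Itgav fell to 644 ± 65.7 CPM at 6 h (log2 fold change -0.49, SE 0.06) and to 551 ± 38.3 CPM at 24 h (-0.43, SE 0.06). Itga2 fell to 376 ± 15.5 CPM (log2 fold change -0.41, SE 0.04) and to 276 ± 3.6 CPM (-0.43, SE 0.04). Itga5 fell to 64.3 ± 0.94 CPM at 6 h (log2 fold change -0.22, SE 0.04) and to 60.7 ± 1.0 CPM at 24 h (-0.51, SE 0.04). Lamb3 fell to 1214 ± 20.6 CPM at 6 h and to 842 ± 36.8 CPM at 24 h (log2 fold change -0.24, SE 0.04 each). Without the TWEAK samples with islet reads, the values at 24 h were -0.40 for Lama3, -0.71 for Itgb6, -0.37 for Itgav, -0.38 for Itga2, -0.54 for Itga5 and -0.24 for Lamb3, and all of these remained called with edgeR (adjusted p of at most 0.00606).

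Itga1 fell at 6 h. It went from 5.71 ± 0.44 to 3.40 ± 0.26 CPM (log2 fold change -0.77, SE 0.14), and was at -0.31 and not called at 24 h, while the difference between the times was itself not called (0.47, SE 0.20, edgeR adjusted p = 0.192). Itga8 had 2 reads in each sample with NIK SMI1 at 6 h against 10, 17 and 15 with TWEAK, and 4, 4 and 5 reads at 24 h against 10, 11 and 11. On the CPM scale the samples with NIK SMI1 lay below all TWEAK samples at both times, which is given with no test for the reason above. At 24 h Lamc1, the γ chain of most laminins, was called lower (106 ± 5.1 against 96.9 ± 4.2 CPM, log2 fold change -0.14, edgeR adjusted p = 0.0395), but the value was -0.05 without the samples with islet reads (adjusted p = 0.756) and the call was also lost without replicate 1 or 3 of either group (adjusted p from 0.116 to 0.176).

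In the other direction Itga6 rose to 384 ± 11.5 CPM at 6 h (log2 fold change 0.21, SE 0.04) and to 319 ± 10.8 CPM at 24 h (0.29, SE 0.04), with no overlap with TWEAK. The epithelial marker sum was also higher than with TWEAK at both times, at 14000 to 14990 and 12340 to 12450 CPM, and its part was not tested. Itgb4 rose at 6 h to 1268 ± 26.4 CPM (log2 fold change 0.17, SE 0.04), a call lost without replicate 1 of TWEAK (0.13, edgeR adjusted p = 0.0627), and was at 0.06 and not called at 24 h. Itgb1 was not called at 6 h (0.03) and rose at 24 h to 2761 ± 89.4 CPM (log2 fold change 0.14, SE 0.03). Without the samples with islet reads the 24 h values were 0.33 for Itga6 and 0.17 for Itgb1, and both remained called (edgeR adjusted p of at most 0.0228). Itga3 rose at 6 h to 2547 ± 32.8 CPM (log2 fold change 0.15, SE 0.03), and these samples lay above those of vehicle as well, although that difference was not called (0.04). Itga7 (2.01 ± 0.11 against 3.00 ± 0.19 CPM, log2 fold change 0.57, edgeR adjusted p = 0.0253) and Itga2b (2.25 ± 0.19 against 3.19 ± 0.58 CPM, 0.51, adjusted p = 0.029) were called higher at 6 h. The Itga7 call was lost without any TWEAK sample or without replicate 1 or 3 of TWEAK+NIK SMI1 (edgeR adjusted p from 0.0517 to 0.0959). The Itga2b call was lost in the fit of these groups alone (adjusted p = 0.0602) and without replicate 2 or 3 of TWEAK or replicate 2 of TWEAK+NIK SMI1 (adjusted p from 0.0794 to 0.238).

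TWEAK+NIK SMI1 was also compared with vehicle. Without a group given NIK SMI1 alone, what remained of the TWEAK response and any other effect of the inhibitor cannot be told apart here. At 24 h the islet genes summed to at most 0.065 CPM with TWEAK+NIK SMI1 and to 11.6 to 15.7 CPM in vehicle. The 24 h comparison therefore cannot separate the treatment from these reads, and leaving out TWEAK samples removes none of this difference. At 6 h 5 of the 25 members were higher (20%, against 7.23% of all genes) and 3 were lower (12%, against 6.70%). At 24 h 6 were higher (24%, against 8.07%) and 4 were lower (16%, against 9.83%). Lama3 stayed 1.56-fold higher at 6 h and 1.70-fold higher at 24 h (log2 fold changes 0.64 and 0.76, SE 0.04 each). Itgb6 stayed 1.49-fold and 1.44-fold higher (0.58 and 0.53, SE 0.06 each), and Itga2 1.19-fold and 1.25-fold higher (0.25 and 0.32, SE 0.04 each). Itgav was not called at 6 h (0.14, edgeR adjusted p = 0.146) and was higher at 24 h (0.27, SE 0.06). Without replicate 1 of vehicle the 6 h value of Itgav was 0.23 and called (adjusted p = 0.00499), and the fit without the filter called it too (adjusted p = 0.00089). Lamb3 was level with vehicle at 6 h (1214 ± 20.6 and 1219 ± 27.4 CPM) and called higher at 24 h (0.12, adjusted p = 0.0159), a call lost without replicate 1 or 3 of vehicle or replicate 2 of TWEAK+NIK SMI1 (edgeR adjusted p from 0.061 to 0.146). Lama5 was higher at 6 h (708 ± 32.2 against 610.2 ± 48.7 CPM, log2 fold change 0.22, SE 0.05), and was not called against TWEAK (0.07). Itga6 stayed lower at both times (-0.24 and -0.30, SE 0.04 each), and Itgb4 (-0.21, SE 0.04) and Itgb5 (-0.23, SE 0.05) were lower at 24 h.

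Itga5 was higher than in vehicle by 0.22 at 24 h (SE 0.04). At 6 h Itga5 was higher by 0.11 on the log2 scale (edgeR adjusted p = 0.0391), a call lost in DESeq2 (0.0532), with DESeq2 size factors or library totals alone (0.0513 each), without the filter (0.144), in the fit of these groups alone (0.161), and without replicate 1 or 3 of vehicle or replicate 1 or 2 of TWEAK+NIK SMI1 (adjusted p from 0.0824 to 0.152). Itgb1 and Lamb1 were lower at 6 h, with log2 fold changes of -0.10 each (adjusted p = 0.0368 and 0.0468, edgeR). Both calls were lost in the fit of these groups alone, without replicate 1 of vehicle and without replicate 2 or 3 of TWEAK+NIK SMI1, and that of Lamb1 also without its replicate 1 (edgeR adjusted p from 0.0578 to 0.329). Lamc1 was lower at 24 h (-0.14, adjusted p = 0.0352), which was lost without any vehicle sample or replicate 1 or 3 of TWEAK+NIK SMI1 (edgeR adjusted p from 0.0567 to 0.153).

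**Figure D5:**
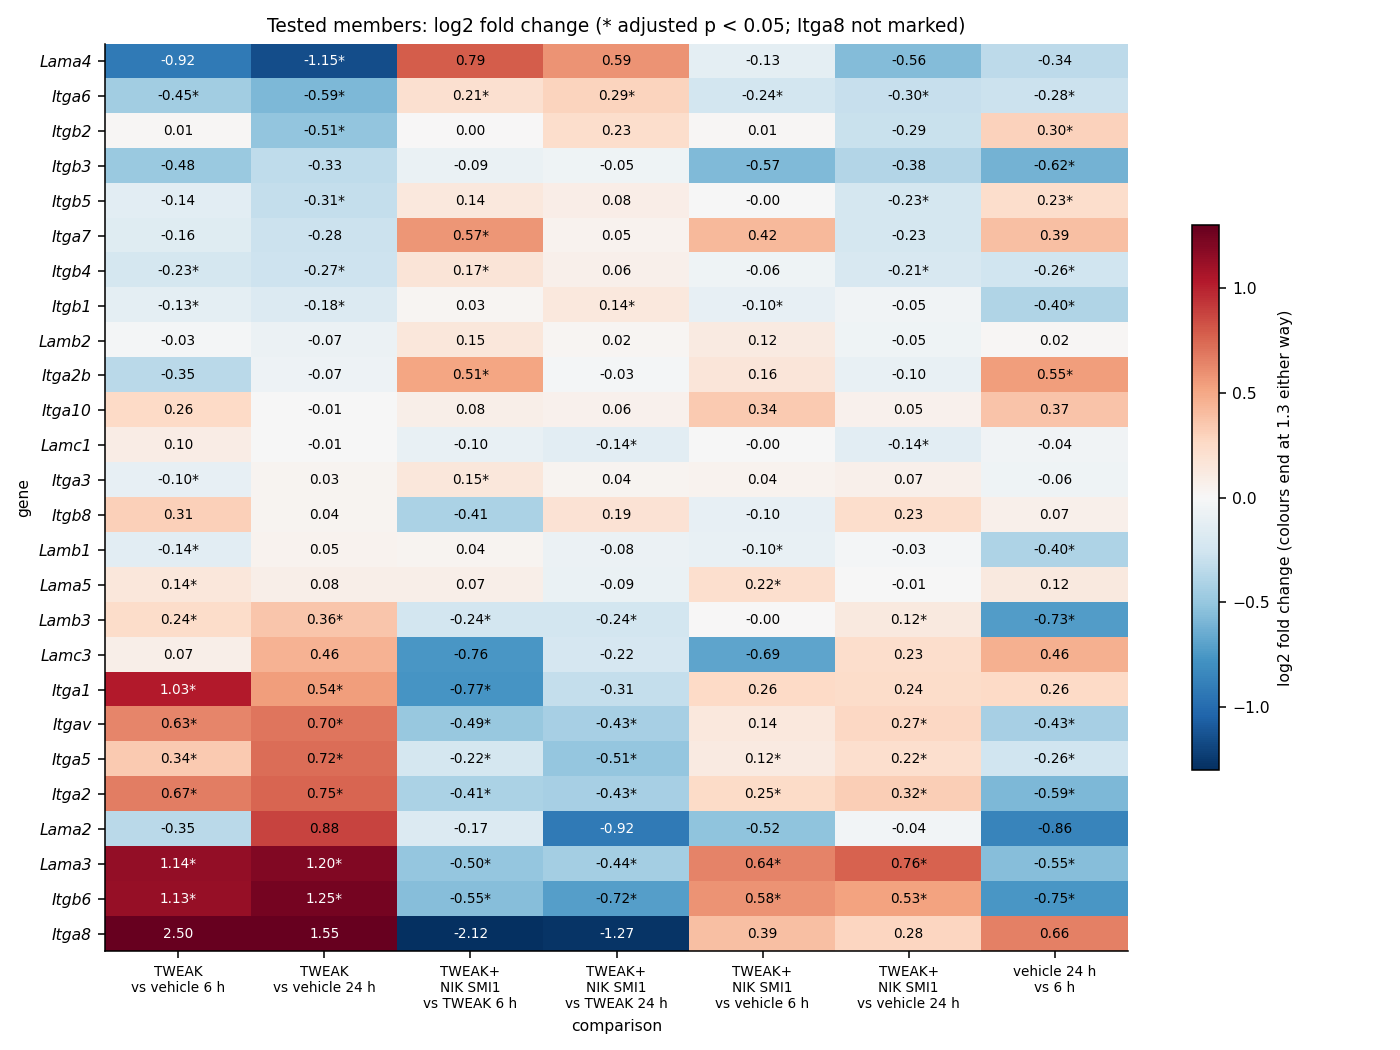
Log2 fold change of the 26 tested members (rows, ordered by TWEAK against vehicle at 24 h) in 7 comparisons (columns), with red for higher, blue for lower and an asterisk for an edgeR adjusted p below 0.05, which is not given for Itga8; the colours end at 1.3 either way. Lama3, Itgb6, Itga2, Itgav, Itga5 and Lamb3 are red with TWEAK and blue when NIK SMI1 was added, and Itga6 shows the reverse colours.

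The vehicle cultures also differed between the times. In vehicle, 11 of the 25 members were lower at 24 h than at 6 h (44%, against 14.4% of all genes) and 3 were higher (12%, against 15.5%), and the median log2 fold change was -0.25, beside 0.005 over all genes. Itgb6 fell 1.69-fold (log2 fold change -0.75, SE 0.06), Lamb3 1.65-fold (-0.73, SE 0.04), Itga2 1.5-fold (-0.59, SE 0.04) and Lama3 1.46-fold (-0.55, SE 0.04). Itgav (-0.43, SE 0.06), Lamb1 (-0.40, SE 0.03), Itgb1 (-0.40, SE 0.03), Itga6 (-0.28, SE 0.04), Itga5 (-0.26, SE 0.04) and Itgb4 (-0.26, SE 0.04) fell as well. The samples of the 2 times did not overlap for any of these 10 genes. They were picked by their calls, and the share of all genes without overlap was not counted. The epithelial marker sum was lower at 24 h as well (13560 to 13830 against 14520 to 15180 CPM), and its part was not tested. Itgb3, the β subunit of the vitronectin receptor αvβ3, was called lower (2.04 ± 0.29 against 1.40 ± 0.03 CPM, -0.62, edgeR adjusted p = 0.0306), but not without replicate 1 or 3 at 6 h or any sample at 24 h (adjusted p from 0.0617 to 0.111), nor with library totals alone (0.0504). The members that rose were Itga2b (2.86 ± 0.45 against 4.42 ± 0.23 CPM, log2 fold change 0.55, SE 0.14), Itgb5 (0.23, SE 0.05) and Itgb2 (8.01 ± 0.47 against 10.3 ± 0.60 CPM, 0.30, SE 0.10). The Itgb2 call was lost without replicate 2 at 6 h or replicate 1 or 2 at 24 h (edgeR adjusted p from 0.076 to 0.127). The 4 platelet markers went from 208 to 219 CPM at 6 h down to 150 to 154 CPM at 24 h in vehicle, and their part in the rise of Itga2b was not tested.

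The effect of TWEAK itself differed between 6 h and 24 h for 4 members, 3 with a more positive effect at 24 h (12%, against 3.24% of all genes) and 1 with a more negative effect (4%, against 5.67%). For Itga5 the log2 effect was 0.34 at 6 h and 0.72 at 24 h, a difference of 0.38 (SE 0.05, adjusted p = 8.87e-06). For Lamb1 it was -0.14 and 0.05, a difference of 0.19 (SE 0.05, edgeR adjusted p = 0.0121), which without the TWEAK samples with islet reads was 0.15 and not called (adjusted p = 0.192). Itga3 had a difference of 0.14 (edgeR adjusted p = 0.037), which was 0.11 and not called without those samples (adjusted p = 0.29), nor without replicate 1 of vehicle or 1 or 2 of TWEAK at 6 h, or replicate 1 or 3 of either group at 24 h (adjusted p from 0.0505 to 0.139). Itgb2 had a difference of -0.52 (edgeR adjusted p = 0.0212), which was -0.34 and not called without those samples (adjusted p = 0.292), nor without replicate 2 of either group at 6 h, replicate 1 of vehicle or replicate 1 or 3 of TWEAK at 24 h (adjusted p from 0.056 to 0.0828). For Lama3, Itgb6, Itgav and Itga2 the difference of the effect lay between 0.06 and 0.12 and was not called (SE 0.06 to 0.09). The effect of NIK SMI1 under TWEAK was called different between the times for Itga5, no member being more positive at 24 h (3.11% of all genes) and 1 more negative (4%, against 1.62%). The log2 effect on Itga5 was -0.22 at 6 h and -0.51 at 24 h, a difference of -0.28 (SE 0.05, adjusted p = 0.00139).

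Transcripts of the proteins that connect integrins to the cytoskeleton changed in both directions. Of 32 tested adapter and signalling genes, 5 rose (15.6%, against 11.7% of all genes) and 8 fell (25%, against 12.0%) with TWEAK at 6 h. At 24 h 10 rose (31.2%, against 18.3%) and 10 fell (31.2%, against 20.7%). Fermt1, which encodes kindlin-1, the epithelial activator of β integrins, rose from 570.3 ± 4.1 to 1130.0 ± 25.7 CPM at 6 h (log2 fold change 0.998, SE 0.03) and from 379 ± 5.2 to 814 ± 25.7 CPM at 24 h (1.10, SE 0.03). Cd82, a tetraspanin that associates with integrins, rose by 0.78 and 0.86 on the log2 scale (SE 0.03 and 0.04). Tns2 and Lims2 were lower at 6 h (-0.49 and -0.44), and Tns4 and Kank1 at 24 h (-1.23 and -0.62), the first being a tensin at 5.24 ± 0.46 CPM in vehicle. When NIK SMI1 was added, 5 of the adapter genes rose (15.6%, against 5.34%) and 6 fell (18.8%, against 5.70%) at 6 h, and 6 rose (18.8%, against 10.2%) and 6 fell (18.8%, against 8.29%) at 24 h. Cd82 (-0.60 and -0.70) and Fermt1 (-0.38 and -0.49) fell at both times, Lims2 (0.49) and Tns2 (0.32) rose at 6 h, and at 24 h Tns4 rose (0.72) and Pxn, which encodes paxillin, fell (-0.31). Against vehicle, TWEAK+NIK SMI1 left 4 adapter genes higher (12.5%, against 7.23%) and 2 lower (6.25%, against 6.70%) at 6 h, among them Fermt1 (0.62), Cd82 (0.18), Zyx (0.15) and Tns1 (-0.41). At 24 h 6 were higher (18.8%, against 8.07%) and 8 lower (25%, against 9.83%), among them Fermt1 (0.61), Tns3 (0.35), Tns4 (-0.50) and Kank1 (-0.34). In vehicle between 6 h and 24 h, 18 adapter genes fell (56.2%, against 14.4%) and 5 rose (15.6%, against 15.5%), led by Fermt1 (-0.66), Fermt2 (-0.57), Zyx (-0.53) and Kank1 (0.47). The TWEAK effect differed between the times for 7 adapter genes, 4 upward (12.5%, against 3.24%) and 3 downward (9.38%, against 5.67%), led by Tns4 (-0.81), Kank1 (-0.34), Tns3 (0.30) and Ptk2b (0.30). The effect of the inhibitor differed for 4, downward for Lims2 (-0.66), Zyx (-0.21) and Pxn (-0.17) (9.38%, against 1.62%) and upward for Cd9 (0.21; 3.12%, against 3.11%).

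Of 26 tested genes for other basement membrane components and integrin ligands, 7 rose (26.9%, against 11.7% of all genes) and 5 fell (19.2%, against 12.0%) with TWEAK at 6 h. At 24 h 7 rose (26.9%, against 18.3%) and 11 fell (42.3%, against 20.7%). The largest rises were those of the cell surface ligands of leukocyte integrins. Vcam1, the ligand of α4β1, went from 4.07 ± 0.16 to 75.1 ± 5.1 CPM at 6 h (log2 fold change 4.21, SE 0.08) and from 5.98 ± 0.51 to 142 ± 2.8 CPM at 24 h (4.54, SE 0.08). Icam1, the ligand of β2 integrins, went from 1.17 ± 0.08 to 7.01 ± 0.17 CPM and from 1.15 ± 0.50 to 12.2 ± 0.19 CPM (2.60, SE 0.16, and 3.41, SE 0.17). Itga4, the α subunit that binds Vcam1, had at most 4 reads in any sample. Thbs1, which encodes thrombospondin-1, rose at 6 h from 1825 ± 90.7 to 3205 ± 76.8 CPM (0.82, SE 0.04), as did Emilin1 (0.98, SE 0.26). Npnt, which encodes nephronectin, fell at 24 h from 409.6 ± 7.5 to 164 ± 2.6 CPM (-1.32, SE 0.03), and Fbln5 from 1.69 ± 0.44 to 0.468 ± 0.10 CPM (-1.94, SE 0.30). For this list and the adapter genes, only the called genes with the 4 largest changes in each comparison are named. A gene named at 1 time may therefore have changed at the other as well. With NIK SMI1 against TWEAK, 4 genes of this list rose (15.4%, against 5.34%) and 4 fell (15.4%, against 5.70%) at 6 h, and 8 rose (30.8%, against 10.2%) and 7 fell (26.9%, against 8.29%) at 24 h. Vcam1 fell to 12.4 ± 1.4 and 20.1 ± 1.9 CPM (-2.63 and -2.82), Icam1 fell (-1.03 and -2.14), Thbs1 fell at 6 h (-0.43), Npnt rose (0.37 and 0.53) and Fbln5 rose at 24 h (1.25). Against vehicle, TWEAK+NIK SMI1 left 5 higher (19.2%, against 7.23%) and 3 lower (11.5%, against 6.70%) at 6 h, and 4 higher (15.4%, against 8.07%) and 7 lower (26.9%, against 9.83%) at 24 h. Vcam1 (1.58 and 1.72) and Icam1 (1.57 and 1.27) stayed higher at both times, as did Ntn1 (0.46) and Thbs1 (0.40) at 6 h, while Npnt (-0.79) and Spp1 (-0.75), which encodes osteopontin, were lower at 24 h. In vehicle over time, 11 fell (42.3%, against 14.4%) and 5 rose (19.2%, against 15.5%), led by Tnc (-0.67), Nid1 (-0.66), Ccn1 (-0.61) and Vcam1 (0.51). The TWEAK effect differed between the times for 11, 4 upward (15.4%, against 3.24%) and 7 downward (26.9%, against 5.67%), led by Fbln5 (-1.51), Icam1 (0.81), Postn (0.79) and Npnt (-0.69). The inhibitor effect differed for 3, downward for Icam1 (-1.11) and Sparc (-0.16) (7.69%, against 1.62%) and upward for Npnt (0.16; 3.85%, against 3.11%).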

How the data were processed

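RNA of 18 cultured RPTEC samples was sequenced after TruSeq v2 library preparation, a kit that does not mark strand, so overlapping antisense reads cannot be told apart. GSNAP, run by the authors through HTSeqGenie, mapped the reads to NCBI mouse build 37. They deposited raw counts of uniquely aligned reads per exonic gene, RPKM values scaled by exonic length and by a sample total, and that length as another column of the deposited tables. Versions are not given in the sources used here, and the labels and the study's methods differ on sequencer, read length and RNA input. Symbols came from RefSeq (GRCm38.p6) by Entrez identifier, and 31049 of 36528 matched.

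Counts were tested in edgeR 4.0.16 (R 4.3.3; TMM, quasi-likelihood F test, 6 groups, 18 samples) on genes that 4 or more samples held at over 10 reads, as the study required, with Benjamini-Hochberg adjustment over 15521 genes and a threshold of 0.05. CPM divide a count by the summed counts of its sample and multiply by 1e6, RPKM served only to compare levels between genes, and values after ± are SDs of 3 samples. The study used DESeq2, which here is an alternative (1.42.0). The other alternatives were DESeq2 size factors, library totals alone, filterByExpr, no filter, the compared groups alone and leaving out each sample. The edgeR fit was tested on simulated data. Replicate pairs within a group differed by more than sampling noise, with chi-square of 2.17 to 9.76 per gene. The members and lists were chosen with earlier results of these data known, every called member is named, and of the adapter and ligand lists the called genes with the 4 largest changes in each comparison. Itga8, which passed the filter only through TWEAK samples, was left out of the counts after its values were seen. Replicate numbers only tell samples apart. Floor values cover counting error only.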

Additional observations from a re-analysis of the deposited data

Results flagged for a closer look

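The effect of TWEAK differed between 6 h and 24 h for 4 members, by the test of the difference itself (edgeR, interaction of treatment and time). The difference of the log2 effect, 24 h minus 6 h, was 0.38 for Itga5, 0.19 for Lamb1, 0.14 for Itga3 and -0.52 for Itgb2. Itga5 kept its call in every alternative that was run. Lamb1 (0.15), Itga3 (0.11) and Itgb2 (-0.34) lost theirs without the TWEAK samples with islet reads at 24 h, replicates 1 and 3 (edgeR adjusted p = 0.192, 0.29 and 0.292). The effect of NIK SMI1 under TWEAK differed for Itga5 by -0.28, and this call was kept in every alternative that was run. Both comparisons use the TWEAK samples of each time. The cause of these differences was not tested.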

How the results depend on the processing

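Of 84 called changes of the 25 counted members over the 9 comparisons, 65 kept their call in every alternative, 19 lost it in at least 1, and none reversed, nor did any of the 141 changes that were not called. Of the latter, 23 were called in at least 1 alternative. Counting Itga8 too, left out after its values were seen, made the TWEAK counts 14 at each time and that of NIK SMI1 against TWEAK at 6 h 13. Because only TWEAK samples carried Itga8 past the filter, these counts are biased toward its calls and say nothing about Itga8. For the same reason, how Itga8 fared in the alternatives is not given. The counts of called members stayed within 1.5 times the main count, with these exceptions. For TWEAK+NIK SMI1 against vehicle at 6 h, 8 members became 5 in the fit of these groups alone and 5 to 10 when 1 sample was left out (5 without replicate 2 of TWEAK+NIK SMI1). For the TWEAK effect at 24 h against 6 h, 4 members became 2 to 5 when 1 sample was left out (2 without replicate 2 of TWEAK at 6 h, replicate 1 of vehicle at 24 h, or replicate 1 or 3 of TWEAK at 24 h), and 1 without the TWEAK samples with islet reads, an alternative chosen after seeing the data. For the effect of NIK SMI1 at 24 h against 6 h, 1 member became 2 without the filter. The cause of these changes was not tested.

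Leaving out 1 sample made 19 changes callable that were not called with all samples. Without replicate 1 of vehicle at 6 h these were Itga2b (-0.44) and Lamc1 (0.15) with TWEAK, Itgav (0.23) with TWEAK+NIK SMI1 against vehicle, and the time difference of the TWEAK effect on Itga6 (-0.17). Without replicate 2 of vehicle at 6 h they were Itgb3 with TWEAK (-0.60) and with TWEAK+NIK SMI1 (-0.69), and Itga7 with TWEAK+NIK SMI1 (0.60) and over time in vehicle (0.57). Without replicate 3 of vehicle at 6 h they were Itga10 with TWEAK (0.63), with TWEAK+NIK SMI1 (0.71) and over time (0.74), Itgb5 with TWEAK (-0.16), Lamb2 with TWEAK+NIK SMI1 (0.21) and Lama5 over time (0.18). Without replicate 1 of TWEAK+NIK SMI1 at 6 h they were Itgb3 against vehicle (-0.94) and Lamb2 against TWEAK (0.21). The others were the time difference of the TWEAK effect on Lamb3 (0.16) without replicate 3 of TWEAK at 6 h, Lama5 with TWEAK at 24 h (0.15) without replicate 2 of vehicle, and Itgb2 at 24 h against TWEAK (0.35) without replicate 2 of TWEAK and against vehicle (-0.38) without replicate 1 of TWEAK+NIK SMI1.

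No paired analysis was possible because the labels carry no replicate numbers. Tested members near or under 1 CPM in every sample (Itga8, Lama2, Lama4 and Lamc3) rest on at most 44 reads per sample. Itgb3, at 0.845 to 2.25 CPM, rests on 18 to 117 reads per sample. The 10 members that failed the filter were given by their reads, with no test.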
